A study of Rattus norvegicus with 6 samples.

Results

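Members of the TNF receptor superfamily were examined in sensory neurons of hypertensive rats whose perirenal fat had been removed. The set held 7 of the 25689 genes in the count table, taken by gene name: Tnfrsf12a, Tnfrsf1a, Tnfrsf1b, Tnfrsf11b, Tnfrsf19, Tnfrsf21 and Fas. The members were selected on the Tnfrsf12a difference between the groups, which was lower after surgery, so the Tnfrsf12a difference is described below without a test, whereas the other 6 receptors carry the p-values of a fit over all genes. These 6 were picked from a larger family with earlier results of these data known, and the other family receptors are described apart. All 7 passed the filter on low counts.

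The animals were wild-type spontaneously hypertensive rats (SHR), an inbred strain that develops high blood pressure without further treatment. The labels give an age of 6 to 8 weeks, whereas the study's methods give an older age at purchase. RNA came from dorsal root ganglion (DRG) neurons of the levels L1-L2, the segmental clusters of sensory cell bodies that innervate perirenal adipose tissue among other organs. PRATA rats had that fat removed on both sides and sham rats had the operation without removal, with 3 samples in each group collected 4 weeks after the operation. After enzymatic digestion of the ganglia, neurons were rinsed off the dish after a short culture in which glia attach at a different speed, so the preparation is enriched for neurons rather than pure. The labels do not say whether the 3 samples of a group were separate animals, and the p-values therefore measure the spread between these samples, which may be technical.

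Receptors of this superfamily sit in the plasma membrane and bind trimeric ligands of the TNF family through cysteine-rich extracellular repeats. Those with an intracellular death domain recruit the adaptors Tradd and Fadd and can lead to caspase activation, whereas those without one recruit TRAF proteins and lead mainly to NF-kB and kinase signalling. In sensory ganglia the family is known for roles in nerve injury, axon pruning, axon growth and cytokine-driven sensitisation.

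The sequences just upstream of the annotated starts are given for the 3 receptors whose groups did not overlap (22.8% of all tested genes). The choice is one of presentation, and the Tnfrsf12a difference chose the set. Each sequence is the 250 bases before the start in RefSeq on GRCr8, printed 5′ to 3′ on the strand of the gene. The Tnfrsf12a stretch lies on the minus strand at chr10:13213649-13213898, the Tnfrsf19 stretch on the minus strand at chr15:39334567-39334816 and the Tnfrsf21 stretch on the minus strand at chr9:25451324-25451573. Capitals mark matches on either strand to an AP-1 motif (TGANTCA), an NF-kB motif (GGG, any 3 bases, TTCC), a TEAD motif (GGAATG) or an Sp1 motif (GGGCGG).
Tnfrsf12a: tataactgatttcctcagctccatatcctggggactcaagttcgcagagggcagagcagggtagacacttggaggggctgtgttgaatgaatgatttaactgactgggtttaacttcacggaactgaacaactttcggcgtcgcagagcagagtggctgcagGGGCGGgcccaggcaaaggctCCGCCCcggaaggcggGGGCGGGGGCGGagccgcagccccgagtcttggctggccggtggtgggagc
Tnfrsf19: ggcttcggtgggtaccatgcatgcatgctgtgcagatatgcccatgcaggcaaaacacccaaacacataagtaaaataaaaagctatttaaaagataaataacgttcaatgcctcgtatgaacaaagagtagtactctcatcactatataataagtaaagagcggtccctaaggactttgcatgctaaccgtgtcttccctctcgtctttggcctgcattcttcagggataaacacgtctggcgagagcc
Tnfrsf21: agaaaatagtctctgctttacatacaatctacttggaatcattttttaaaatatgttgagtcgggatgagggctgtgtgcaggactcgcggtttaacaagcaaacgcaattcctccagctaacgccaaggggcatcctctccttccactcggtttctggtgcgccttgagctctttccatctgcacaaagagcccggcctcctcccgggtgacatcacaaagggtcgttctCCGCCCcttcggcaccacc

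The Tnfrsf12a stretch was rich in G and C (60.8%, against a median of 51.2% over 33469 RefSeq promoters of the same length) and held 4 Sp1 matches, all within the last 88 bases before the start. The Tnfrsf21 stretch held 1 Sp1 match and the Tnfrsf19 stretch held no match to any of the 4 motifs. Of the 6 members found in the promoter table, 4 had an Sp1 match, 2 an AP-1 match (Fas and Tnfrsf1b), 1 a TEAD match (Tnfrsf1b, where it overlaps an Sp1 match) and 0 an NF-kB match. Over all 33469 promoters the shares with a match were 30.5% for Sp1, 6.34% for AP-1, 12.1% for TEAD and 4.53% for NF-kB. A match is a description of letters in this window and not a binding site. The table held no entry for Tnfrsf11b.

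Total counts ran from 5892967 in sham replicate 2 to 15226952 in sham replicate 1, so that 3 counts, the floor used here, correspond to 0.509 and 0.197 CPM, the counts scaled to the library total. Sham replicate 2 was the shallowest library and still had the most genes detected (23168, against 18956 to 20672 in the others). PRATA replicate 3 and sham replicate 1 stood apart from the other 4 libraries in their 7SL RNA, a non-coding RNA of the signal recognition particle, because Rn7sl1 held 92.0% and 94.1% of the 7SL counts there and 45.3% to 47.4% elsewhere. In the edgeR quasi-likelihood fit of PRATA against sham, 0 of 14919 tested genes had an adjusted p under 0.05 and 2734 (18.3%) had an unadjusted p under 0.05. DESeq2 called 728 genes and limma voom with sample quality weights called 1173, while limma-trend called 0.

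Tnfrsf12a, the receptor for the ligand TWEAK (Tnfsf12), is short, lacks a death domain and is known to be induced by tissue injury and growth factors. Its level was 56.9, 54.6 and 45.6 CPM in PRATA replicates 1 to 3 and 157.0, 68.1 and 145.7 CPM in sham replicates 1 to 3. All PRATA samples lay below all sham samples, with sham replicate 2 close to the PRATA range and the other 2 sham samples far above it. The mean was 52.4 ± 5.96 CPM in the PRATA group against 123.6 ± 48.4 CPM in the sham group (SD, n = 3 each), and the fitted level was 2.36-fold lower after PRATA (log2 fold change −1.24, SE 0.30). The counts behind these values were 436 to 2272 per library. Without sham replicate 2 the log2 fold change was −1.53, and without PRATA replicate 3 and sham replicate 1 it was −0.96.

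**Figure D1:**
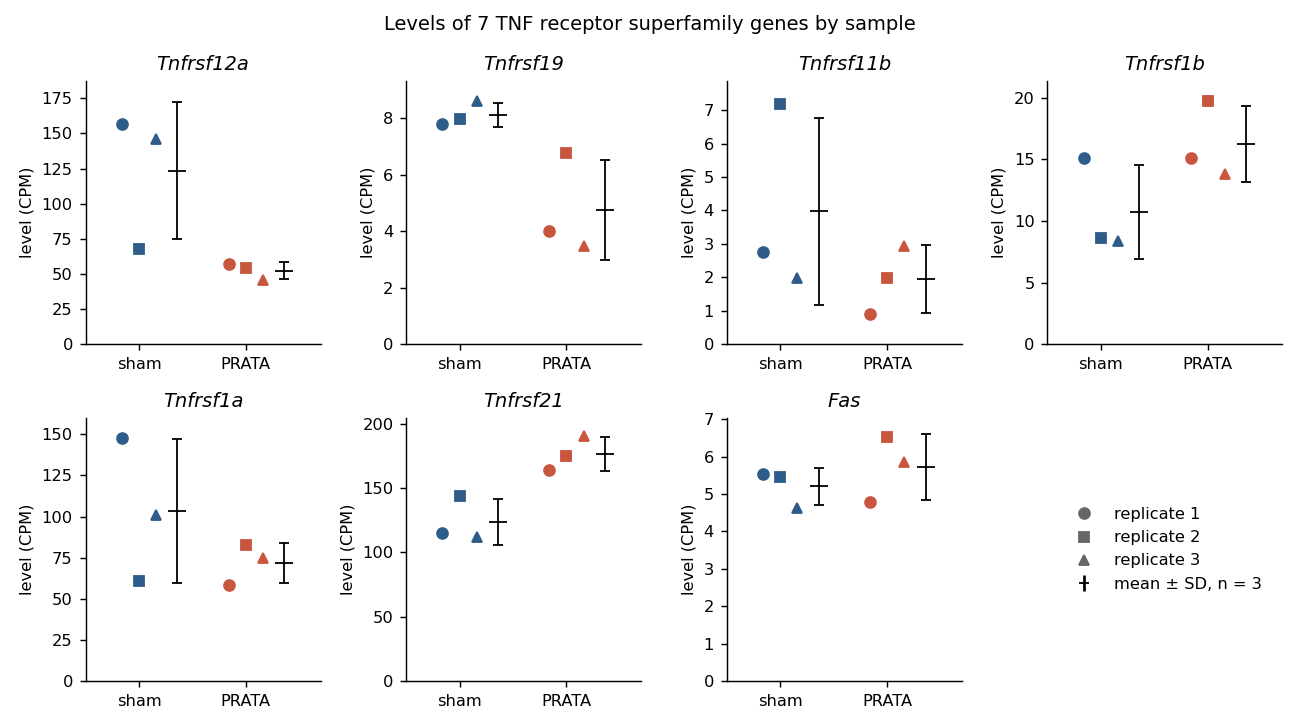
Level of each of the 7 receptors in every sample, in CPM on a separate linear axis for each gene, with sham and PRATA samples as points marked by replicate and the group mean with its SD (n = 3). The PRATA points of Tnfrsf12a and Tnfrsf19 lie below and those of Tnfrsf21 above every sham point, and the groups of the other receptors overlap.

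Ratios taken within a library do not depend on how libraries were scaled. The count of Tnfrsf12a was 0.974, 0.662 and 0.611 times that of Tnfrsf1a in the PRATA samples and 1.06, 1.12 and 1.44 times in the sham samples. Against Tnfrsf21 the ratio was 0.346, 0.312 and 0.239 after PRATA and 1.36, 0.472 and 1.303 after sham. Both ratios were lower in every PRATA sample than in every sham sample, and no test was run on them because they contain the gene that chose the set.

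The ligand of Tnfrsf12a was measured in the same libraries. Tnfsf12 was measured at 10.8, 9.64 and 9.33 CPM after PRATA and at 8.36, 9.05 and 8.50 CPM after sham. Every PRATA sample was above every sham sample by a small amount, as in 11.6% of all tested genes. The log2 fold change was 0.20 (SE 0.21, edgeR adjusted p = 0.633). The Tnfrsf12a count was 5.25, 5.66 and 4.89 times the Tnfsf12 count in PRATA samples and 18.8, 7.52 and 17.1 times in sham samples.

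The genes whose pattern over the 6 samples was most like that of Tnfrsf12a were taken by the root mean square difference in centred log2 CPM. They were Lbh (0.112), a transcription cofactor, Rubcn (0.113), a regulator of autophagy, Fermt2 (0.119), an integrin activator of focal adhesions, Cd63 (0.121), a tetraspanin of late endosomes, and Taf1d (0.131), a factor of RNA polymerase I. Their log2 fold changes lay between −1.27 for Fermt2 and −0.99 for Taf1d. Because they were picked for likeness to Tnfrsf12a in these same samples, a similar difference and sample order follow from the choice. Fermt2, for example, was at 382, 413 and 401 CPM after PRATA and at 1170, 547 and 1170 CPM after sham, with sham replicate 2 again the lowest sham sample. Within the receptor set, Tnfrsf1a lay closest to Tnfrsf12a (0.432, with 1123 other genes closer) and Tnfrsf11b farthest (1.08, with 12705 genes closer).

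Tnfrsf19, also called TROY, has no death domain and is known in the nervous system as a partner of the Nogo receptor in blocking axon growth. It was measured at 4.002, 6.77 and 3.48 CPM after PRATA and at 7.81, 7.96 and 8.60 CPM after sham, from 31 to 113 counts per library. All PRATA samples were below the sham samples, and PRATA replicate 2 was the nearest to them. The means were 4.75 ± 1.77 and 8.12 ± 0.418 CPM (SD, n = 3 each). The log2 fold change was −0.77 (SE 0.31, edgeR adjusted p = 0.247). Its gene overlaps a long non-coding RNA gene in RefSeq on GRCr8, and the strand setting of the counting is not given in the sources used here, so reads from the pair cannot be told apart.

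Tnfrsf11b encodes osteoprotegerin, a secreted decoy that binds the ligands Tnfsf11 and Tnfsf10 and passes no signal itself. It was near the floor, at 0.904, 1.99 and 2.93 CPM after PRATA and 2.76, 7.18 and 1.98 CPM after sham, from 7 to 46 counts per library. The groups overlapped, and sham replicate 2 was the only sample above 3 CPM. The log2 fold change was −0.97 (SE 0.61, edgeR adjusted p = 0.420), and −0.27 without sham replicate 2. Without PRATA replicate 3 and sham replicate 1 it was −1.58.

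Tnfrsf1b is the second TNF receptor, which lacks a death domain, recruits Traf2 and is best known on immune and endothelial cells. It was measured at 15.1, 19.7 and 13.8 CPM after PRATA and at 15.1, 8.58 and 8.41 CPM after sham. The groups overlapped through sham replicate 1, which was as high as the PRATA samples. The log2 fold change was 0.59 (SE 0.29, edgeR adjusted p = 0.316), 0.92 without sham replicate 1, and 1.03 when PRATA replicate 3 was left out as well. Its gene overlaps another locus in RefSeq on GRCr8, so shared reads are possible.

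Among the members with a death domain, Tnfrsf21 was higher after PRATA. Tnfrsf21, also called death receptor 6, is made by neurons and is known for a part in axon pruning. It was measured at 164.5, 175.0 and 190.8 CPM after PRATA and at 115.4, 144.1 and 111.8 CPM after sham, so that the lowest PRATA sample exceeded the highest sham sample. The means were 177 ± 13.3 and 124 ± 17.7 CPM (SD, n = 3 each), a log2 fold change of 0.51 (SE 0.17, edgeR adjusted p = 0.200). With 1 library left out it ran from 0.45 to 0.64. The highest value came without sham replicate 2 (edgeR adjusted p = 0.0582), and without PRATA replicate 1 it was 0.54 (edgeR adjusted p = 0.551).

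Tnfrsf1a, the first TNF receptor, binds TNF and lymphotoxin alpha and recruits Tradd through its death domain. It was measured at 58.5, 82.4 and 74.7 CPM after PRATA and at 148.0, 60.6 and 101.0 CPM after sham. The groups overlapped because sham replicate 2 lay near the lowest PRATA sample. The log2 fold change was −0.52 (SE 0.31, edgeR adjusted p = 0.399). Its size depended on single sham libraries, being −0.79 without sham replicate 2 (adjusted p = 0.0807) and −0.19 without sham replicate 1 (adjusted p = 0.769). Leaving out PRATA replicate 3 as well gave −0.21.

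Fas, the receptor of Fas ligand (Faslg), uses Fadd to recruit caspase-8. It was similar in all samples, at 4.78, 6.53 and 5.85 CPM after PRATA and 5.53, 5.46 and 4.63 CPM after sham. The groups overlapped, and the log2 fold change was 0.14 (SE 0.26, edgeR adjusted p = 0.812). The gene overlaps a small nuclear RNA locus in RefSeq on GRCr8.

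**Figure D2:**
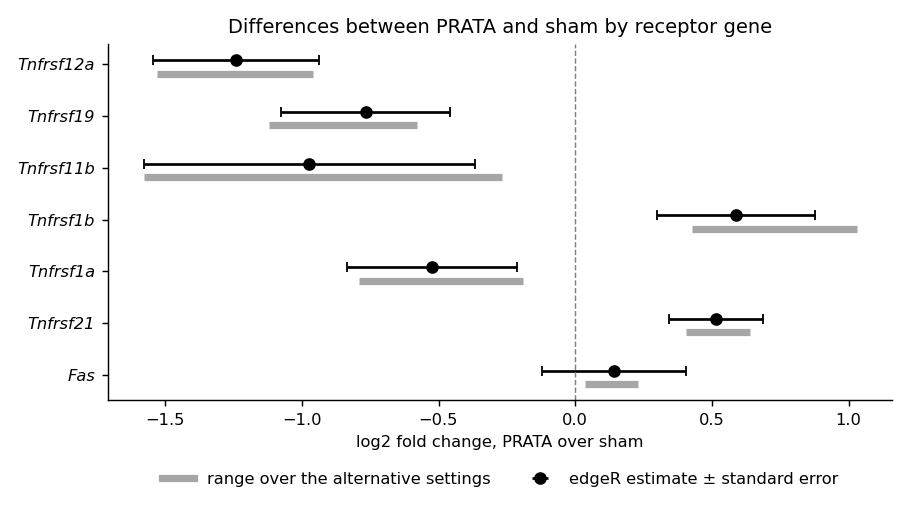
Log2 fold change of each receptor, PRATA against sham, from the edgeR fit, with its standard error, and as a grey bar the range of the value over the alternative settings. Tnfrsf12a lies lowest at −1.24 and Tnfrsf1b highest at 0.59, and no grey bar crosses 0.

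The receptors other than Tnfrsf12a were set against all tested genes. Of these 6, 3 had a log2 fold change above 0 and 3 below, 1 had an unadjusted p under 0.05 in the higher direction (8.19% of all tested genes) and 1 in the lower direction (10.1%), and 0 had an adjusted p under 0.05. None of the 6 had both an unadjusted p under 0.05 and a log2 fold change beyond 1 in size, thresholds that 1.17% of all tested genes passed in the higher, 3.23% in the lower and 4.4% in either direction. The groups did not overlap in 2 of the 6, with Tnfrsf21 above sham (11.6% of all tested genes) and Tnfrsf19 below it (11.2%, or 22.8% in either direction). With so few genes in each direction, these counts are no result about the receptors as a set.

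The balance between the 2 TNF receptors was compared within each library, as a ratio chosen after the counts had been seen. The count of Tnfrsf1b was 0.258, 0.239 and 0.185 times that of Tnfrsf1a after PRATA and 0.102, 0.142 and 0.0833 times after sham. Every PRATA ratio lay above every sham ratio, with means of 0.227 ± 0.0379 and 0.109 ± 0.0298 (SD, n = 3 each). The exact two-sided permutation test gave p = 0.1, which is the smallest value that 3 against 3 samples allow, and 0.3 after Benjamini-Hochberg adjustment over the 3 ratios tested. The ratio of Tnfrsf21 to Tnfrsf1a overlapped between groups (2.81, 2.12 and 2.55 after PRATA against 0.780, 2.38 and 1.11 after sham, exact permutation p = 0.2), as did that of Fas to Tnfrsf1a (0.0817, 0.0793 and 0.0783 against 0.0373, 0.0902 and 0.0458, exact permutation p = 0.4).

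**Figure D3:**
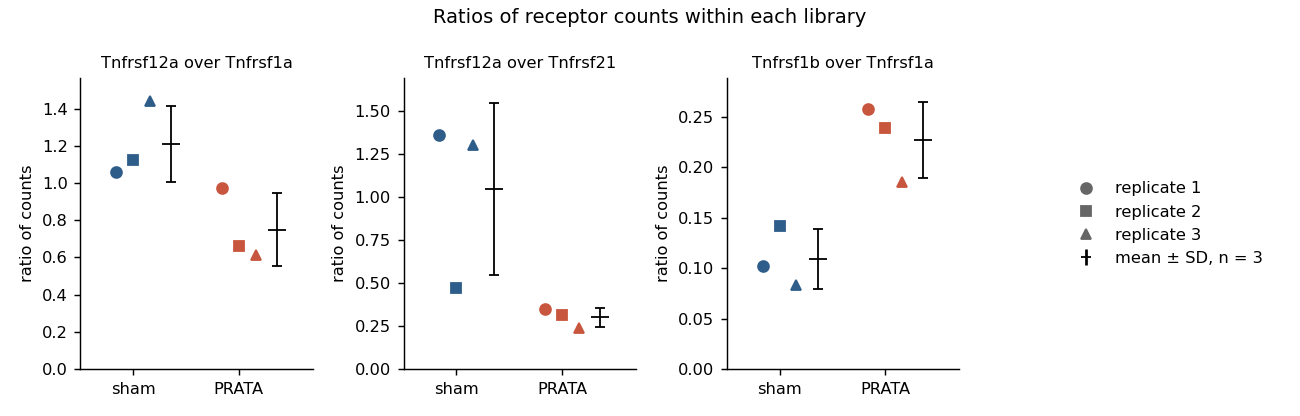
Ratio of the counts of 2 receptor genes within each library, on a linear axis for each of 3 ratios, with sham and PRATA samples as points marked by replicate and the group mean with its SD (n = 3). The PRATA points of Tnfrsf12a over Tnfrsf1a and over Tnfrsf21 lie below every sham point, and those of Tnfrsf1b over Tnfrsf1a lie above every sham point.

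Few counts fell on the ligands of these receptors. Of 18 listed ligands 10 were tested, and their log2 fold changes ran from −0.29 for Tnfsf8 to 0.50 for Ltb, with 7 above 0 and 3 below. Over all tested genes 48.0% were below 0. None of the 10 ligands had an unadjusted p under 0.05. Tnf itself was at 1.94, 7.09 and 1.502 CPM after PRATA and 7.95, 0.624 and 2.27 CPM after sham, which overlap widely (log2 fold change −0.08, SE 0.86, edgeR adjusted p = 0.970).

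Fas ligand (Faslg) was at 1.94, 1.12 and 3.80 CPM after PRATA and 1.73, 1.56 and 1.61 CPM after sham (log2 fold change 0.48, SE 0.51, edgeR adjusted p = 0.647). Tnfsf10, the ligand TRAIL, had a log2 fold change of 0.07 (SE 0.85, edgeR adjusted p = 0.975). Both overlapped between groups. Lymphotoxin alpha (Lta) had at most 7 counts and Tnfsf11, the ligand RANKL, at most 2 counts in any library, too few to test.

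Of 19 other receptors of the superfamily 18 were found, of which 8 were tested and 10 had too few counts. Ngfr, the p75 neurotrophin receptor with a death domain, was at 825, 586 and 803 CPM after PRATA and at 403, 523 and 393 CPM after sham, so that every PRATA sample was higher. Its log2 fold change was 0.75 (SE 0.23, edgeR adjusted p = 0.182). Ltbr, the lymphotoxin beta receptor, was at 19.4, 28.6 and 23.6 CPM after PRATA and at 39.3, 29.5 and 46.1 CPM after sham. Every PRATA sample was lower, with PRATA replicate 2 just under sham replicate 2 (log2 fold change −0.68, SE 0.23, edgeR adjusted p = 0.200). Over the 8 tested, 4 were above 0 and 4 below, 1 had an unadjusted p under 0.05 in the higher direction (8.19% of all tested genes) and 1 in the lower (10.1%), and the median was 0.10 beside 0.02 for all tested genes.

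Among the adaptors and caspases of death signalling, 10 of 11 genes were tested, 4 above 0 and 6 below, with a median of −0.20. The adaptors Tradd (0.19, SE 0.42, edgeR adjusted p = 0.842) and Fadd (−0.13, SE 0.32, edgeR adjusted p = 0.856) had log2 fold changes within their errors. Bid, which carries the death-receptor signal to mitochondria, was higher in every PRATA sample (35.6, 33.7 and 38.5 CPM against 30.2, 28.3 and 28.1 CPM), with a log2 fold change of 0.32 (SE 0.16, edgeR adjusted p = 0.316).

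Of the TRAF and inhibitor-of-apoptosis genes, 10 of 11 were tested and 9 of these were below 0 (48.0% of all tested genes). Their median log2 fold change was −0.17, beside 0.02 for all tested genes. The list was not tested as a set. Traf2, the adaptor shared by Tnfrsf12a, Tnfrsf1b and the Tnfrsf1a complex, was at 13.6, 17.6 and 14.5 CPM after PRATA and 24.6, 16.4 and 24.8 CPM after sham. The groups overlapped through sham replicate 2 (log2 fold change −0.53, SE 0.22, edgeR adjusted p = 0.266). Traf7 had the same log2 fold change, −0.53 (SE 0.22, edgeR adjusted p = 0.252).

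The list of NF-kB relay factors and associated kinases gave 17 tested genes, 12 of them below 0 (48.0% of all tested genes), with a median of −0.26. Map3k5 (ASK1) was listed here as a kinase that Traf2 recruits, not as a core NF-kB kinase. It was at 34.3, 30.7 and 39.0 CPM after PRATA and at 20.9, 24.0 and 19.6 CPM after sham. All PRATA samples were above the sham samples (log2 fold change 0.69, SE 0.18, edgeR adjusted p = 0.167). Tab2, which links ubiquitin chains to the kinase TAK1, was below sham in every PRATA sample (70.5, 79.1 and 68.7 CPM against 131.7, 84.3 and 113.8 CPM, log2 fold change −0.60, SE 0.20, edgeR adjusted p = 0.198). The inhibitors and deubiquitinases that limit NF-kB differed less clearly, with 6 of 9 above 0, a median of 0.38 (0.058 without sham replicate 2) and 0 with an unadjusted p under 0.05. Nfkbie (0.51, SE 0.27, edgeR adjusted p = 0.338) and Otulin (−0.30, SE 0.23, edgeR adjusted p = 0.505) had the smallest p-values there.

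Genes that TNF is known to induce in many cell types lay in both directions. Of 12 tested, 9 were below 0 (48.0% of all tested genes) and 3 above. An unadjusted p under 0.05 was seen in 4 in the lower direction (10.1% of all tested genes) and 1 in the higher direction (8.19%). The median log2 fold change was −0.33, and 0.14 without PRATA replicate 3 and sham replicate 1. Csf1, a macrophage growth factor made by sensory neurons after injury, was at 125, 148 and 102 CPM after PRATA and at 239, 211 and 202 CPM after sham, with no overlap (log2 fold change −0.80, SE 0.19, edgeR adjusted p = 0.156). Vcam1, an adhesion molecule, was also lower in every PRATA sample (29.4, 29.6 and 25.1 CPM against 52.0, 32.0 and 51.8 CPM, log2 fold change −0.69, SE 0.22, edgeR adjusted p = 0.193).

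Mmp9, a matrix protease, had a log2 fold change of −1.34 (SE 0.49, edgeR adjusted p = 0.225), with overlapping groups. The chemokine gene Cxcl10 was at 272.6, 200.1 and 30.8 CPM after PRATA and 60.5, 45.4 and 44.9 CPM after sham. PRATA replicate 3 lay below every sham sample although the fitted log2 fold change was 1.74 (SE 0.64, edgeR adjusted p = 0.225). It was 2.23 without PRATA replicate 3 (adjusted p = 0.108), 1.20 without PRATA replicate 1 (adjusted p = 0.587) and 2.38 without PRATA replicate 3 and sham replicate 1 (adjusted p = 0.0311).

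The proteases that release receptors of this family from the cell surface and their regulators formed the last list. Timp3, an inhibitor of the sheddase Adam17, was at 297.5, 377.3 and 373.6 CPM after PRATA and at 1657, 633 and 1692 CPM after sham. All PRATA samples were below the sham samples, with sham replicate 2 again the lowest sham sample, and Timp3 was 3.80-fold lower (log2 fold change −1.93, SE 0.38, edgeR adjusted p = 0.156). Without sham replicate 2 the log2 fold change was −2.26 (edgeR adjusted p = 0.0260), a setting in which 721 genes passed. Without PRATA replicate 1 it was −1.85 (edgeR adjusted p = 0.550). With 1 library left out it ran from −2.26 to −1.71. Adam17 itself was at 55.1, 61.6 and 49.4 CPM after PRATA and at 110.5, 59.2 and 137.6 CPM after sham, overlapping at sham replicate 2 (log2 fold change −0.89, SE 0.29, edgeR adjusted p = 0.196). Of the 5 genes 4 were below 0, beside 48.0% of all tested genes.

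**Figure D4:**
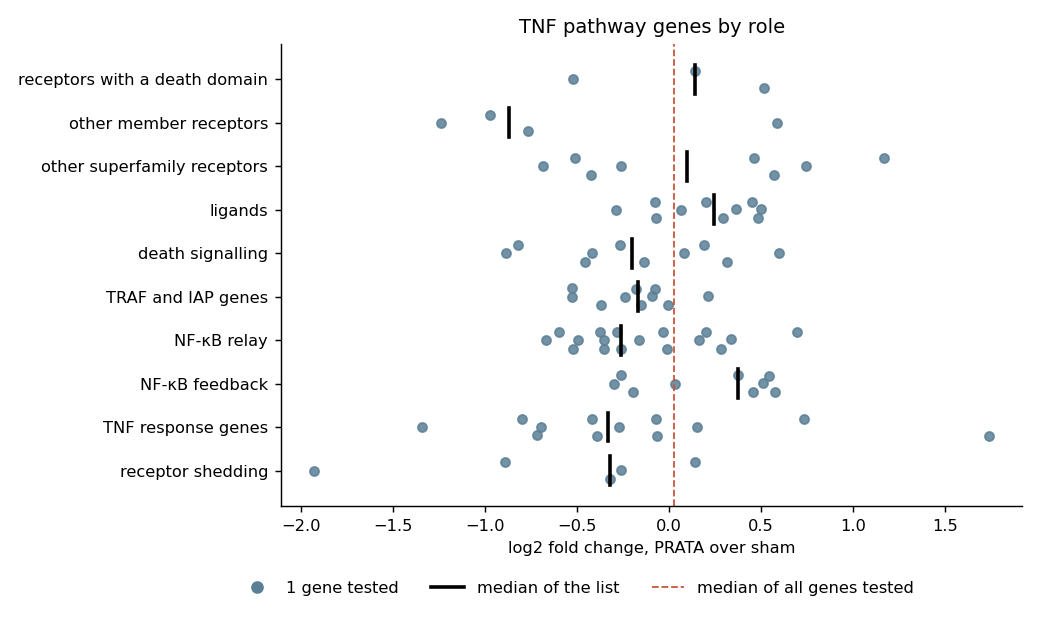
Log2 fold change, PRATA against sham, of the tested genes in the lists shown, with the 7 receptors in the top 2 rows and 8 lists around them below. There is 1 dot a gene, a black line at each list's median and a dashed line at the median of all genes tested (0.02). The dots spread to both sides of 0 in every row, and among the genes shown Timp3 is the lowest at −1.93 and Cxcl10 the highest at 1.74.

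Over the 8 lists, 81 of 101 genes found were tested, and 0 had an adjusted p under 0.05. An unadjusted p under 0.05 was seen in 15, with 3 higher (8.19% of all tested genes) and 12 lower (10.1%). Of these 15, 3 also differed by more than 1 on the log2 scale, thresholds that 4.4% of all tested genes passed. The share with an unadjusted p under 0.05 was 18.5%, against 18.3% of all tested genes. The groups did not overlap in 7 genes with PRATA above sham (11.6% of all tested genes) and 8 with PRATA below (11.2%). In either direction this was 18.5% of the 81, against 22.8% of all tested genes.

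Markers of several cell types of a ganglion leaned in one direction, but none had an adjusted p under 0.05. The summed levels of the groups overlapped for every cell type. Over all tested genes 48.0% had a log2 fold change below 0. The 12 sensory neuron markers were all higher after PRATA, at log2 fold changes of 0.38 to 0.81 and 3 with an unadjusted p under 0.05 (8.19% of all tested genes were higher at that p). Their summed level was 12668 to 19664 CPM after PRATA against 8903 to 13299 CPM after sham. The 6 satellite glia markers were all lower, at log2 fold changes of −0.65 to −0.24 and sums of 3048 to 5784 CPM against 4007 to 7953 CPM. A sum is carried by its most abundant markers, here Apoe, at 2779 to 5229 CPM after PRATA and 3707 to 7473 CPM after sham. In bulk RNA, fewer cells of a type and less RNA per cell cannot be told apart.

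Of 8 Schwann cell markers 7 were higher, with a median log2 fold change of 0.75 and sums of 813 to 1467 CPM against 789 to 990 CPM. The remaining marker, Sox10, a transcription factor shared by Schwann cells and satellite glia and named here after its value was seen, had a log2 fold change of −1.63 (SE 0.38, edgeR adjusted p = 0.156). Of 9 macrophage markers 7 were higher, with a median of 0.68 and sums of 69.1 to 202.8 CPM against 55.4 to 134.1 CPM. Of the 7 fibroblast markers found 6 were lower, with a median of −0.52 and sums of 331 to 1987 CPM against 923 to 1840 CPM. Endothelial sums ran from 55.6 to 109.8 CPM after PRATA and 25.5 to 155.1 CPM after sham, and mural cell sums from 168 to 223 and from 113 to 264 CPM. No marker was at 0 in every library, and the part of the cell mixture in the receptor differences was not tested.

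The log2 level of 4 receptors was also compared, within a library, with the mean log2 level of each of the 7 marker lists. These 4 were picked with earlier results of these data known, and the Tnfrsf12a difference chose the set. Tnfrsf1a, Fas and Tnfrsf11b were not compared in this way. No test was run, and no share over all genes was computed for these comparisons. The mean of a marker list weights every marker equally and is not the summed level given above. Values in brackets are the PRATA average minus the sham average. Tnfrsf12a was lower in every PRATA sample against the neuron (−1.70), satellite glia (−0.65), Schwann cell (−1.76) and mural (−1.29) means. Its groups overlapped against the fibroblast (−0.43), macrophage (−1.60) and endothelial (−1.64) means. Tnfrsf19 was lower in every PRATA sample against the neuron (−1.37), Schwann cell (−1.43) and mural (−0.95) means. Its groups overlapped against the satellite glia (−0.32), fibroblast (−0.10), macrophage (−1.27) and endothelial (−1.31) means.

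Tnfrsf21 was higher in every PRATA sample against the fibroblast mean (1.24). Its groups overlapped against the other 6, among them the neuron mean (−0.03). Tnfrsf1b was higher in every PRATA sample against the satellite glia (1.13), fibroblast (1.35) and mural (0.50) means. Its groups overlapped against the neuron (0.08), Schwann cell (0.02), macrophage (0.18) and endothelial (0.14) means.

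**Figure D5:**
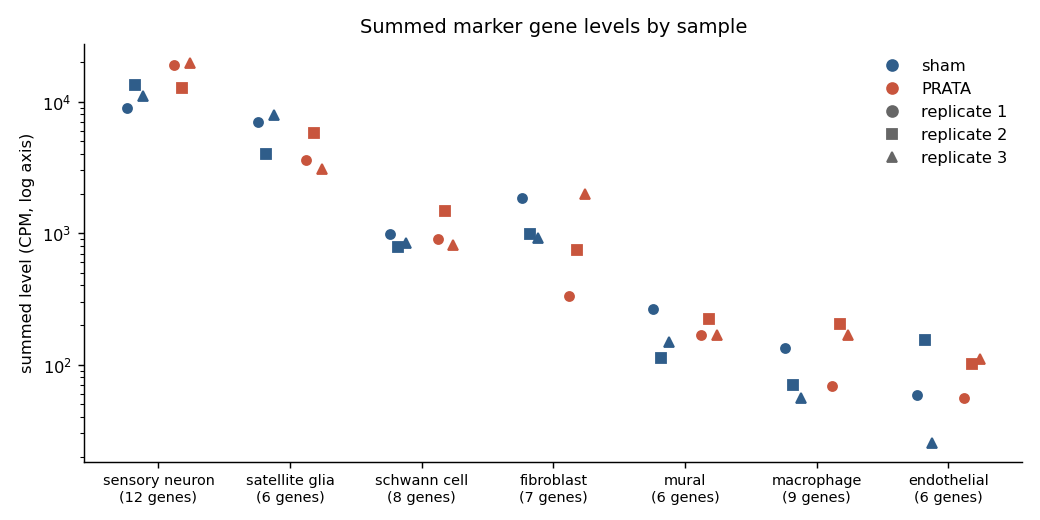
Summed level of the markers of each cell type in every sample, in CPM on a log axis, for sham and PRATA samples. The groups overlap for every cell type, with 2 PRATA samples above all sham samples for the neuron markers.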

How the data were processed

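RNA of DRG neurons from 3 PRATA and 3 sham SHR was sequenced as stranded, ribosomal RNA-depleted libraries. The authors deposited raw counts per gene for 25689 genes with names, and these were used as deposited. The labels' processing notes name STAR 2.7.3a, RSEM and DESeq2, whereas the study's methods name HISAT2, StringTie and Cuffdiff, and which of them made the counts, the genome build and the strand setting are not given in the sources used here.

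Genes were filtered with filterByExpr (minimum count 10, minimum total 15), leaving 14919, scaled by TMM (factors 0.953 to 1.10) and tested with the quasi-likelihood test of edgeR 4.0.16 in R 4.3.3, with Benjamini-Hochberg adjustment over all of them. Levels are TMM-scaled CPM, and log2 fold changes are PRATA minus sham. Levels of different genes are not compared, since no lengths were used. The floor of 3 counts covers counting error only. Standard errors come from the edgeR fit, and they include the spread between samples. The script was tested on simulated data. Ratios within a library used exact permutation tests. DESeq2 1.42.0 and limma 3.58.1 were alternatives. Named genes were the 7 receptors, 9 preset ligands and adaptors, and from each list the genes with a log2 fold change beyond 1 in size and an unadjusted p under 0.05, plus the 2 with the smallest p, and the 5 genes most like Tnfrsf12a. A gene that this rule picked is not reported here. The members and lists were chosen with earlier results of these data known. Promoters came from RefSeq on GRCr8, for 6 of the 7 members. Figures were drawn with matplotlib 3.10.9.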

Additional observations from a re-analysis of the deposited data

How the results depend on the processing

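The 7 receptors kept their direction under every alternative that gave a value, and none of the 6 tested had an adjusted p under 0.05 in any. The log2 fold change of Tnfrsf12a ran from −1.53 to −0.96. Leaving out 1 library gave 0 to 721 genes with an adjusted p under 0.05, with the 721 coming without sham replicate 2, against 0 in edgeR. DESeq2 gave 728, limma voom with sample quality weights 1173, and omitting PRATA replicate 3 and sham replicate 1 gave 13. That last setting and the 7SL copy covariate were chosen after seeing the data. Genes higher past both thresholds numbered 175, with 340 under voom, 421 without the pair, and 101 to 361 with 1 library left out. Genes lower numbered 482, with 1159 without a count filter.

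List medians moved as follows. Other superfamily receptors had −0.35 without a filter and −0.40 to 0.25 with 1 library left out, and ligands −0.081 without a filter. Shedding genes had −0.48 under voom, 0.20 without the pair, and −0.72 to 0.014 with 1 library left out. NF-kB relay genes had −0.021 without the pair and −0.27 to 0.011 with 1 library left out, and NF-kB feedback genes 0.83 without the pair and 0.058 to 0.69 with 1 library left out. TNF response genes had 0.14 without the pair, a change of sign, and −0.59 to −0.071 with 1 library left out. TRAF and inhibitor-of-apoptosis genes had −0.36 to −0.056 and death signalling genes −0.43 to −0.11 with 1 library left out. The members outside the death-domain group had −0.87 in the main fit and −1.05 to −0.52 with 1 library left out. That median includes Tnfrsf12a, whose difference chose the set.

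Single ligands and adaptors of low level reversed. Tnf was 0.26 under limma-trend, 0.29 with the 7SL covariate, 1.58 without the pair and −1.11 to 1.22 with 1 library left out. Tnfsf10 was −0.0064 with library size alone and −0.43 to 1.21 with 1 library left out. Faslg was −0.090 without the pair and −0.12 to 0.82, Tradd −0.12 to 0.39, and Fadd −0.46 to 0.089, with 1 library left out.

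When the replicate number entered as a block, 0 genes had an adjusted p under 0.05, and Tnfrsf12a was −1.16, Tnfrsf21 0.52 and Tnfrsf1a −0.44. Samples with the same number did not deviate together (r = −0.35, −0.04 and −0.35). These values depend on each other and rest on few samples, so they cannot show whether same-numbered samples were paired or shared a batch. Depth limits Tnfrsf11b most, with as few as 7 counts. In 17 cases a named gene passed the threshold under another setting, among them Timp3, with adjusted p = 3.21e-05 in DESeq2. The causes of these moves were not tested.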
